A study of Mus musculus with 20 samples.

Results

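The genes described here are 32 genes of the vascular endothelium, out of 17097 genes measured on 20 arrays. They were measured in CD44+CD8+ effector T cells purified from mouse lungs bearing 4T1 tumours, a mammary carcinoma line that grows in the lung. The 32 genes were selected on their log2 difference between SD-101+anti-PD-1 and Saline-CTRL in earlier results of these data, as endothelial genes lower in the first. The values of that comparison are therefore a description only. Each gene is represented by 1 probe set, the one of highest mean over the 20 arrays among those assigned to a single gene symbol.

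All mice carried 4T1 tumours in the lung and were treated by the intranasal route, per the labels. The Saline-CTRL group (5 arrays) received saline. The SD-101 group (6 arrays) received SD-101, a ligand of TLR9, which is a receptor for microbial DNA. The SD-101+anti-PD-1 group (5 arrays), called the combination below, received SD-101 and an antibody against PD-1, an inhibitory receptor of T cells. The SD-101+anti-PD-1+a-CD4 group (4 arrays), called the a-CD4 group, received both and a further agent that the labels write as a-CD4. The labels give no strain, age, dose or time, and nothing in them says that each sample is another animal. The p-values therefore cover only the variation among the arrays, which may be technical. All values are log2 intensities, on which a difference of 1 is a factor of 2, and intensities of different probe sets do not rank genes by amount of RNA.

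The endothelium is the single layer of cells that lines blood vessels. Its identity is kept by transcription factors of the ETS and SOXF families, its stability by angiopoietin and BMP9 signalling, and its barrier by VE-cadherin and claudin-5 junctions. The lung holds one of the densest capillary beds of the body, in which endothelial cells lie against the alveolar epithelium. Sorted T cells are not known to express most of these genes, although Pecam1 and Icam2 are also made by leukocytes and Cd34 by progenitor and stromal cells.

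The label of the sort was checked first. Cd8a, a chain of the CD8 co-receptor, averaged between 10.45 and 10.93 in the 4 groups, and Ptprc, the pan-leukocyte gene CD45, between 11.38 and 11.69. Transcripts of other lung cells were present beside them: the surfactant gene Sftpc averaged up to 13.40 in a group, and the highest value of any probe set was 13.44. The arrays are bulk measurements, so fewer cells of a type and less RNA per cell cannot be told apart. The mean of 11 T cell identity genes was lowest on replicate 2 of the a-CD4 group (8.58) and Saline-CTRL replicate 1 (9.02), and lay between 9.50 and 10.51 on the other arrays.

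The promoters of the genes are shown first, because many of these genes are textbook targets of ETS factors such as ERG, a member itself. RefSeq promoters on GRCm38.p6 were matched for 17 of the 32 genes (22 promoters), taking the 250 bases before each transcription start. Those of the 5 genes with the largest difference between the combination and saline, among the genes with an entry, are printed 5′ to 3′ on the strand of the gene. Capitals mark the ETS-type hexamer CAGGAA or, where it lies on the opposite strand, its reverse complement TTCCTG.
Clec14a, chr12:58269259-58269508, minus strand: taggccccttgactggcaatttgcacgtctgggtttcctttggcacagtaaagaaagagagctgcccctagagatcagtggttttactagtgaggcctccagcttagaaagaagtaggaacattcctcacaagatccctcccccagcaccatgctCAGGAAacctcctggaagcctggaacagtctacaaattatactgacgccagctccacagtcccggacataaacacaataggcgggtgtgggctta
Tek, chr4:94739039-94739288, plus strand: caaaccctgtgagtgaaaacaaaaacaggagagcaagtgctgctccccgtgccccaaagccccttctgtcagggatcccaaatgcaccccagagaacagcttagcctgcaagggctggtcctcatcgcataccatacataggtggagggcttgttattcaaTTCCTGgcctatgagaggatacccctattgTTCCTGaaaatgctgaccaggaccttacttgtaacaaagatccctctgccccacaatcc
Acer2, chr4:86874164-86874413, plus strand: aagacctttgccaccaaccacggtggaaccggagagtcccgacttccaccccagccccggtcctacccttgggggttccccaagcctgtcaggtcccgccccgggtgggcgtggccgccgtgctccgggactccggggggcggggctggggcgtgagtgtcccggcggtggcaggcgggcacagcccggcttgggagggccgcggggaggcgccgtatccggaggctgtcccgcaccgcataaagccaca
Emcn, chr3:137340828-137341077, plus strand: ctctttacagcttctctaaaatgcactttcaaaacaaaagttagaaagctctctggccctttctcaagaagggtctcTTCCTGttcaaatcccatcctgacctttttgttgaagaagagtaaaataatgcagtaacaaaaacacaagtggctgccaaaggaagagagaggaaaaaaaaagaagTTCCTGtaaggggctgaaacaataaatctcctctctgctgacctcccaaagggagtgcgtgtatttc
Flt1, chr5:147726012-147726261, minus strand: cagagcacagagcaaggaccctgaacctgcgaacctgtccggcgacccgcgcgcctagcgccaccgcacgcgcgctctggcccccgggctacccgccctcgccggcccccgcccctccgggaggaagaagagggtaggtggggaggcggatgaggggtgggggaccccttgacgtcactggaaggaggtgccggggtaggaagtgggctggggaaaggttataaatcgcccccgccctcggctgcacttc

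CAGGAA occurred on either strand in 12 of the 22 promoters, from 11 of the 17 genes, and in 25.7% of all 32851 promoters of the same length. The other ETS-type hexamer searched, CCGGAA, occurred in 0 of the 22 and in 12% of all. The SOX-type hexamer ACAATG was found in 2 of the 22 against 10.7% of all, and the GATA-type AGATAA in 3 against 9.99%. Some promoters held both ETS-type hexamers, and 35.1% of all held either. The printed Tek and Emcn promoters hold a pair of copies each, that of Clec14a holds 1, and those of Acer2 and Flt1 hold 0. These are matches of letters in these windows only.

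Taken as a whole, the 32 genes were high in saline and SD-101, lowest in the combination and between these levels in the a-CD4 group. The mean log2 intensity of the 32 genes was 7.98, 6.93, 8.86, 8.70 and 7.97 on the 5 saline arrays. With SD-101 it ran from 6.21 to 8.24. With the combination it was 5.67, 5.56, 5.05, 5.33 and 5.08, and with a-CD4 added it was 6.91, 6.02, 6.09 and 5.77. The 5 combination arrays lay below every array of the other groups. The a-CD4 group arrays lay below every saline array and overlapped SD-101.

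**Figure D1:**
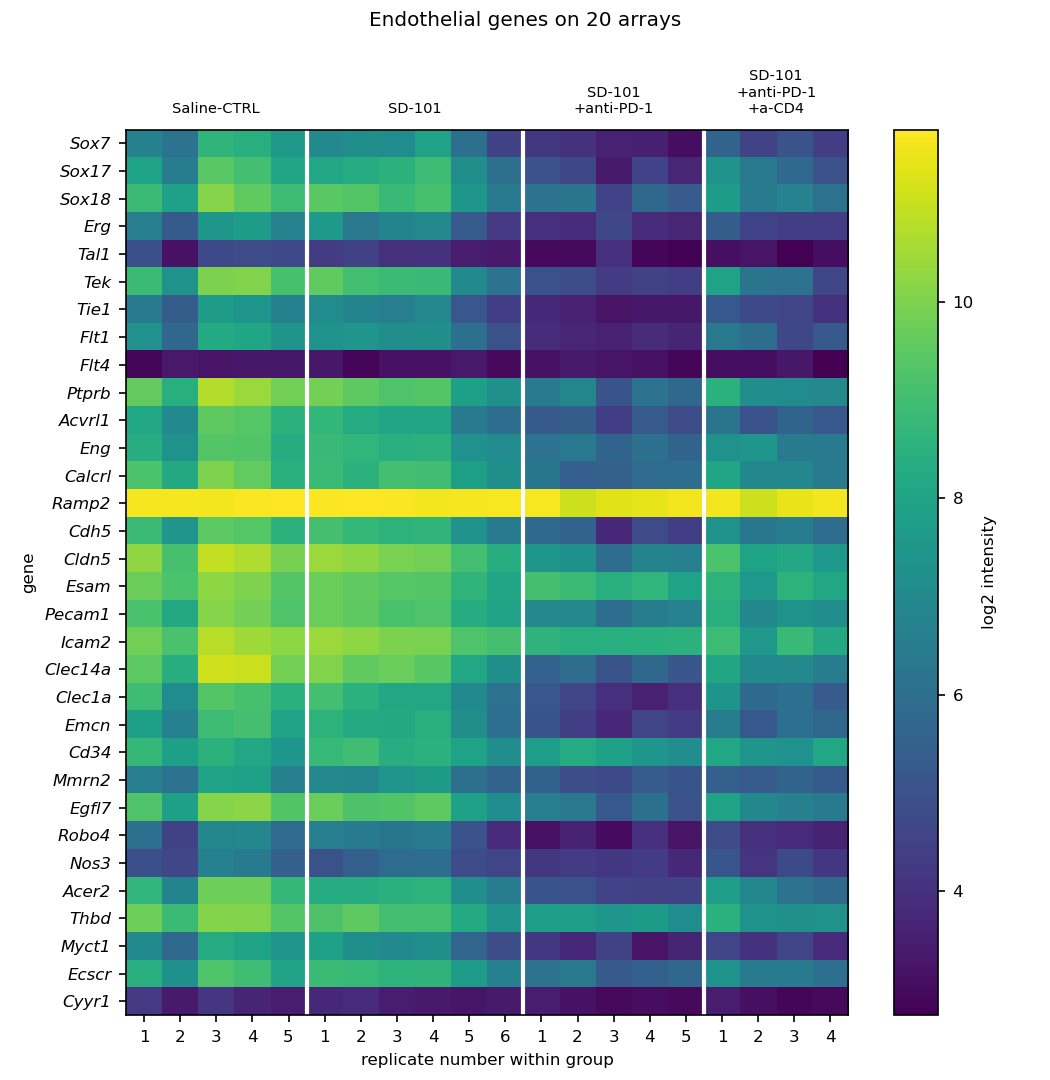
Log2 intensity (colour) of the 32 endothelial genes (rows, ordered by role) on the 20 arrays (columns, numbered by replicate within each group). The combination columns are darkest, Ramp2 is bright and Flt4 dark in every column, and Saline-CTRL replicate 2 and SD-101 replicates 5 and 6 are darker than the rest of their groups.

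The genes varied together from array to array within a group. In saline, replicate 2 was the lowest array for 29 of the 32 genes and replicate 3 the highest for 21. In SD-101, replicates 5 and 6 were the lowest pair for 29 genes, with means of 6.91 and 6.21 against 7.95 to 8.24 on the other 4. In the a-CD4 group, replicate 1 was the highest for 26 genes. The spread was largest in SD-101 and smallest in the combination, with SDs of the 32-gene mean of 0.82 (n = 6) and 0.28 (n = 5).

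Over the 20 arrays, the median Pearson correlation among the 496 pairs of genes was 0.93, and 25 genes correlated above 0.9 with the mean of the other members. This is a description of arrays that share groups, cells and scaling. With group means removed, 26 genes still correlated above 0.8 with the others and the median was 0.93. The lowest were Flt4 (0.16 over the 20 arrays), Ramp2 (0.56, and 0.06 with group means removed) and Cd34 (0.64).

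Sox7, Sox17 and Sox18 encode the SOXF transcription factors that specify endothelium. Sox17 measured 7.98, 6.52, 9.44, 9.07 and 8.08 in saline and 5.05, 4.68, 3.39, 4.56 and 3.71 in the combination. With SD-101 its lowest, median and highest values were 6.08, 8.22 and 8.91, and with a-CD4 added it was 7.37, 6.37, 5.82 and 4.98. No combination array reached any array of saline or SD-101. Sox7 and Sox18 differed between the combination and saline by -3.82 (SE 0.54) and -3.48 (SE 0.55). Erg, the ETS factor that maintains endothelial junctions, differed by -2.76 (SE 0.52). Tal1, a basic helix-loop-helix factor of blood and endothelial precursors, was low throughout, with means of 4.48 in saline and 3.10 in the combination, and it lay at or under the nonspecific control level on 11 arrays. That level is the highest of 22 control probe sets for nonspecific binding on each array, and it ranged from 3.27 to 3.68.

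Among the receptors, Tek encodes TIE2, the angiopoietin receptor that keeps vessels quiescent. It measured 8.90, 7.33, 9.99, 10.05 and 9.14 in saline and 5.02, 4.88, 4.30, 4.48 and 4.42 in the combination, a difference of -4.46 (SE 0.66, 22.0-fold). With a-CD4 added, Tek measured 7.93, 6.19, 6.09 and 4.65. Replicate 4 thus sat within the range of the combination and replicates 1 and 2 within that of SD-101. Its co-receptor gene Tie1 and Flt1, which encodes a decoy receptor for VEGF, differed from saline by -3.31 (SE 0.48) and -3.62 (SE 0.48), and Ptprb, the phosphatase VE-PTP that acts on TIE2, by -3.73 (SE 0.51). Flt4, the VEGF-C receptor gene of lymphatic vessels, had group means of 3.05 to 3.20 and lay at or under the nonspecific level on 18 of 20 arrays, and its groups are not compared. Tie1 and Robo4 reached that level on 4 of the 5 combination arrays, and 23 of the 32 genes were above it on all 20 arrays. Differences of genes that reached it are compressed.

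BMP9 signals through a receptor pair that guards against vessel malformation. Acvrl1, which encodes the type I receptor ALK1, measured 8.12, 7.01, 9.51, 9.37 and 8.55 in saline and 5.29, 5.39, 4.42, 5.32 and 4.84 in the combination. With a-CD4 added it stayed low, at 6.22, 4.99, 5.63 and 5.20. Its co-receptor endoglin, Eng, had means of 8.53, 8.14, 5.98 and 6.93 in saline, SD-101, the combination and the a-CD4 group.

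The adrenomedullin receptor consists of Calcrl and its accessory protein RAMP2, and their genes gave different results. Calcrl had means of 9.09, 8.43, 5.81 and 7.10 in the same order of groups. Ramp2 gave 11.67, 11.68, 11.42 and 11.44 from its brightest probe set, a range of 0.26. A second Ramp2 probe set gave 10.36, 10.43, 10.13 and 10.03. The third gave 10.37, 9.59, 6.82 and 8.29, which follows the pattern of Calcrl. The probe sets of Ramp2 disagree, and no other evidence in these files decides between them.

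**Figure D2:**
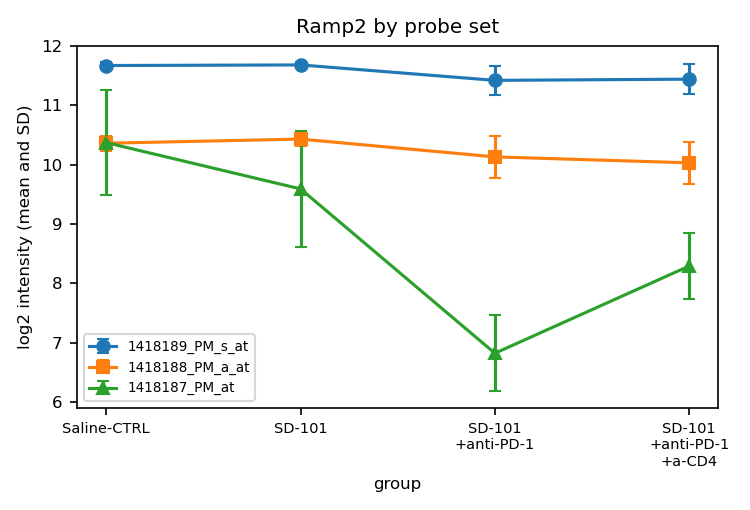
Mean log2 intensity of the 3 Ramp2 probe sets in each group, with SD over arrays as bars (n = 5, 6, 5 and 4). The brightest stays between 11.42 and 11.68, while the one of lowest mean over all arrays (triangles) goes from 10.37 in saline to 6.82 in the combination.

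Of the junction and adhesion genes, Cdh5, which encodes VE-cadherin, and Cldn5, the claudin of the endothelial tight junction, differed most. Cdh5 measured 8.89, 7.45, 9.47, 9.38 and 8.53 in saline and 5.81, 5.56, 3.77, 4.82 and 4.40 in the combination, a difference of -3.87 (SE 0.50). Cldn5 differed by -3.35 (SE 0.42), and Pecam1, the adhesion molecule CD31, by -2.67 (SE 0.38). Icam2, an integrin ligand, differed by -1.63 (SE 0.30), and Esam, an adhesion molecule of endothelium and platelets, by -1.09 (SE 0.31). All 5 were lower on every combination array than on every saline array, as were 2.32% of all genes. This is the comparison that chose the genes.

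The lectin-like protein genes Clec14a and Clec1a were, with Tek, those of the 3 largest differences. Clec14a, whose product binds multimerin-2 in the vessel wall, measured 9.49, 8.34, 11.09, 11.05 and 9.89 in saline and 5.56, 5.97, 5.05, 5.79 and 5.15 in the combination. The difference was -4.47 (SE 0.53, 22.1-fold). Clec1a differed by -4.34 (SE 0.53) and Emcn, the sialomucin of capillary and venous endothelium, by -3.67 (SE 0.48). Cd34 measured 8.73, 7.81, 8.53, 8.13 and 7.49 in saline and 7.76, 8.27, 7.88, 7.48 and 7.17 in the combination. Its groups overlapped and differed by -0.42 (SE 0.32).

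Among the matrix and guidance genes, Egfl7, which encodes a secreted factor of endothelium, differed by -3.51 (SE 0.52). Robo4, a receptor that steadies the vessel barrier, differed by -2.68 (SE 0.50), and Mmrn2, the gene of multimerin-2, by -1.93 (SE 0.37). Of the enzymes, Acer2, an alkaline ceramidase, differed by -4.04 (SE 0.51), against -1.49 (SE 0.36) for Nos3, the endothelial nitric oxide synthase. Thbd, the anticoagulant cofactor thrombomodulin, differed by -2.06 (SE 0.35). Myct1, Ecscr and Cyyr1 differed by -3.45, -2.57 and -0.68, the last of them near background throughout.

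In the comparison that chose the genes, the combination against saline, 29 of the 32 were called lower by limma at an adjusted p under 0.05, against 2.15% of all genes. Those not called were Flt4, Ramp2 and Cd34. The median difference was -3.29, from -4.47 to -0.06 (Flt4, near background), with a median of 0.031 over all genes. For 17 of the 32 the difference exceeded 8-fold, and for 27 no array of one group reached the other, against 2.32% of all genes. The selection used these values, so nothing is read from them.

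**Figure D3:**
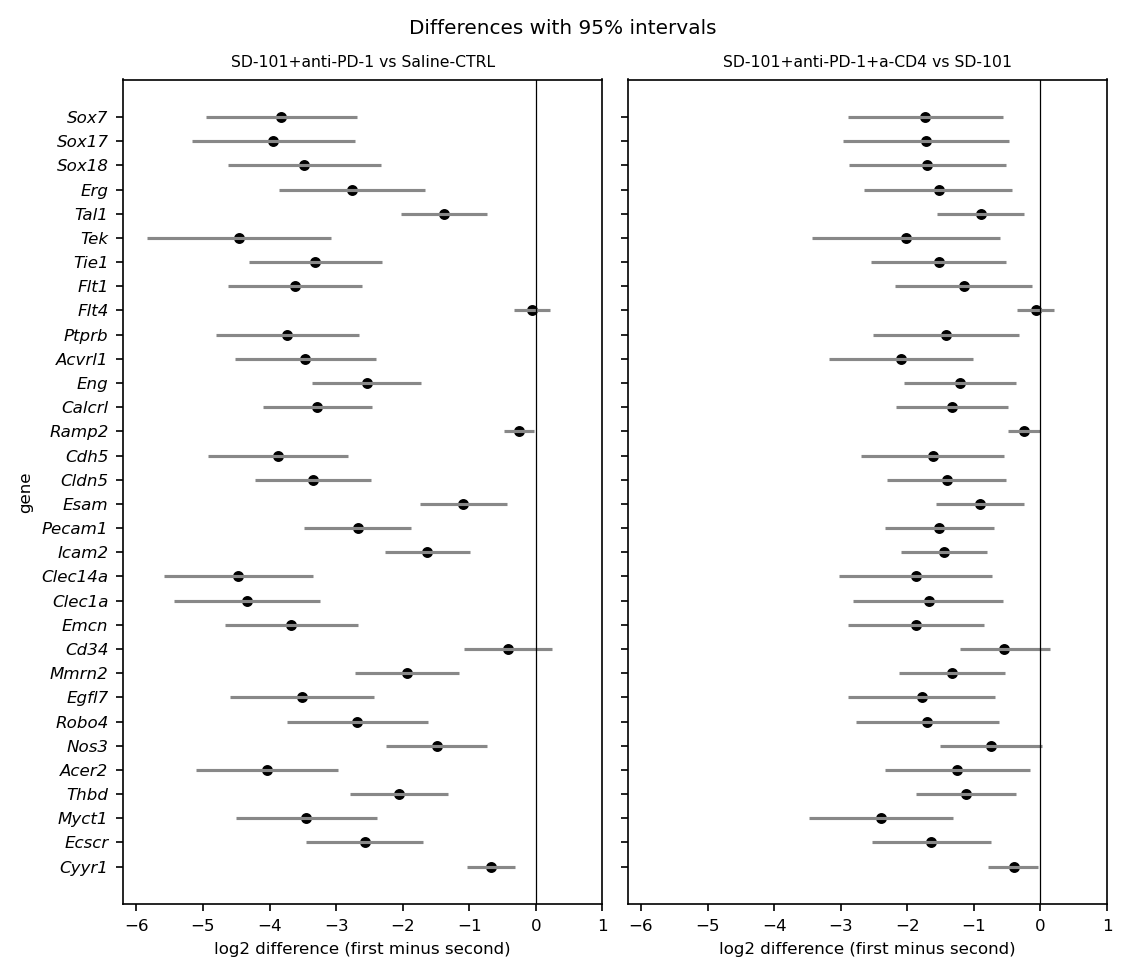
Log2 difference (points) and 95% interval (lines) of the 32 genes in the comparison that chose them (left) and in the a-CD4 group against SD-101 (right). Points on the left run from -4.47 to -0.06 and on the right from -2.39 to -0.07. The points nearest 0 are those of Flt4, a gene at the nonspecific level.

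The a-CD4 group against SD-101 is the test of the members. It is the only pair of groups that shares no array with the comparison that chose the genes. Its SEs and p-values still use a spread fitted over all 4 groups, so the arrays that chose the genes enter them. With only these 2 groups fitted, the calls given below were lost. The median difference over the 32 genes was -1.48, beside 0.027 over all genes. Flt4 was at or under the nonspecific level on every array of both groups, and the other 31 genes were lower, by -2.39 to -0.24. Of the 32, 2 fell at an adjusted p under 0.05 over all genes, against 0.409% of all genes called lower. In 29 of the 32 the unadjusted p was under 0.05, as it was for 2846 of the 17097 genes. The direction of the list is a count over genes that vary together on the same arrays, and it is no count of independent observations.

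Icam2 and Myct1 were the genes called. Icam2 measured 8.91, 7.54, 8.85 and 8.19 with a-CD4 added, and 9.11, 9.96 and 10.39 as lowest, median and highest with SD-101. The fall was 1.45 on the log2 scale (SE 0.31, 95% interval -2.10 to -0.80, limma adjusted p = 0.0351), or 2.73-fold. Myct1, a membrane protein gene of endothelium, measured 4.61, 4.05, 4.62 and 3.79 against 4.88, 7.12 and 7.89, and fell by 2.39 (SE 0.51, limma adjusted p = 0.0362). In both, every array with a-CD4 added lay below every SD-101 array. For Myct1 this held for the chosen probe set only. Its further probe sets overlapped between the groups, with differences of -1.80, -1.74 and -1.64. Groups did not overlap in this direction for 3 of the 32 genes and for 1.72% of all genes. The third was Tal1, at or under the nonspecific level on all 4 a-CD4 group arrays and 2 of the 6 SD-101 arrays, so its order is one of background values.

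The calls depended on single arrays. With each of the 10 arrays left out in turn, the Icam2 call was lost in 6 fits (adjusted p up to 0.115) and the Myct1 call in 6 (up to 0.0943). The arrays concerned were SD-101 replicates 1, 3 and 4 and a-CD4 group replicates 1, 2 and 4, whose omission left 0 members called. Without SD-101 replicate 6, 18 members were called. That replicate was the lowest SD-101 array for 29 of the 32 genes, so omitting it raises their SD-101 means. The share of all genes called in that fit is not given.

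The next genes by adjusted p were Acvrl1 (difference -2.09, SE 0.51, limma adjusted p = 0.0525), Pecam1 (-1.52, SE 0.39, 0.0636), Emcn (-1.87, SE 0.49, 0.0647) and Ecscr (-1.64, SE 0.43, 0.0673). Acvrl1 overlapped between the groups through SD-101 replicate 6, at 6.00, and replicate 1 of the a-CD4 group, at 6.22. Tek (-2.02, SE 0.67), Clec14a (-1.87, SE 0.55) and Cdh5 (-1.62, SE 0.51) were not called. For 25 of the 32 genes the difference exceeded 2-fold, and for 29 the 95% interval lay below 0 before adjustment. Of the 21 further probe sets of these genes, 1 of Sox7 was at background in every group, and the other 20 were lower too, with a median of -1.41.

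Other measures are set beside this comparison. The 18S ribosomal RNA control measured 11.98, 12.05, 12.17 and 12.03 with a-CD4 added and 11.30 to 11.80 with SD-101, so these groups did not overlap. Of 11 immediate early and heat shock genes 2 fell, Fos (-0.76, adjusted p = 0.0127) and Junb (-1.15, adjusted p = 0.0437), both immediate early transcription factor genes, and the list mean ranged from 9.31 to 9.85 against 9.65 to 10.69. The 8 alveolar epithelial genes ranged from 9.41 to 11.27 against 9.87 to 10.92, and the 11 T cell identity genes from 8.58 to 10.51 against 9.50 to 10.35. Neutrophil genes ranged from 4.29 to 9.15 against 3.76 to 6.29. The means of 6 mast cell genes were lower without overlap, at 3.37 to 3.86 against 4.13 to 4.67. Those of 5 B cell genes ranged from 3.51 to 4.20 against 4.17 to 5.85. Those of 11 macrophage genes averaged 4.50 ± 0.49 (SD, n = 4) against 5.38 ± 0.98 (n = 6). The part of these in the endothelial result was not tested. Omitting replicate 2 of the a-CD4 group and Saline-CTRL replicate 1, with the lowest T cell identity levels, left a median of -1.37 and 0 genes called.

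**Figure D4:**
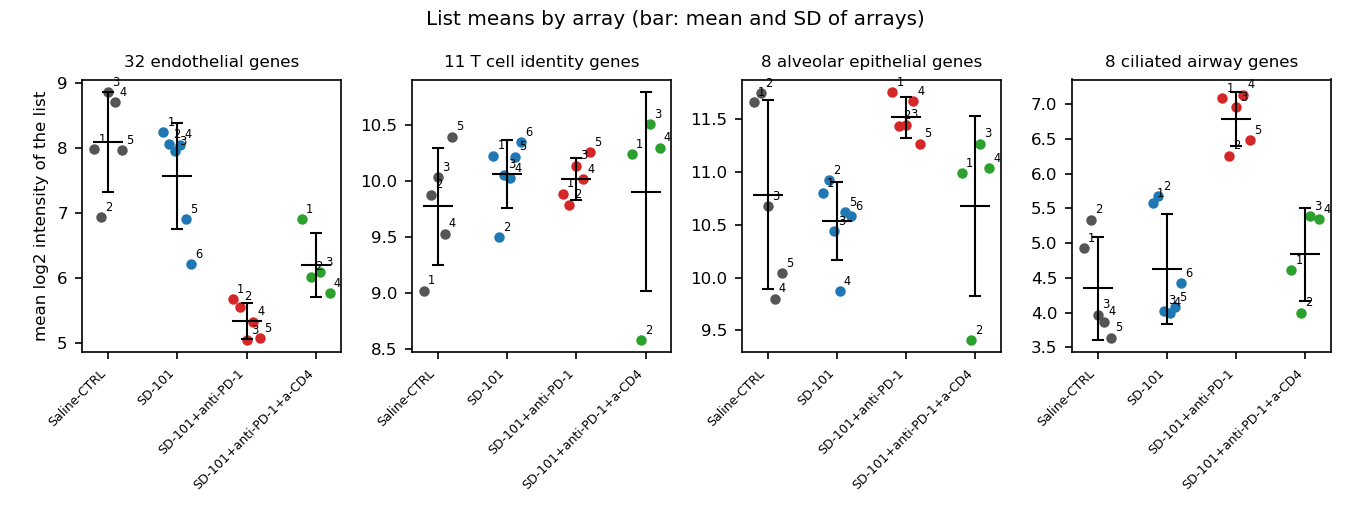
Mean log2 intensity of 4 gene lists on each array (points, numbered by replicate) with the group mean and SD (bars). The endothelial genes are lowest in the combination (5.05 to 5.67), where the ciliated airway genes are highest (6.26 to 7.14) and the T cell identity genes lie within the range of the other groups.

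The remaining comparisons share arrays with the one that chose the genes and are given as values. SD-101 against saline called 0 of the 32 (limma, smallest adjusted p = 0.46), against 0.0351% of all genes called lower and 0.298% higher. The unadjusted p was under 0.05 for 1 gene and for 1414 of all 17097. The median difference was -0.56, and 30 of the 32 genes were lower. The combination against SD-101 called 24 lower, against 1.25% of all genes, with a median of -2.58. The a-CD4 group against saline called 28 lower, against 3.03% of all genes, with a median of -2.0. Each of these shares its saline or its combination arrays with the comparison that chose the genes.

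With a-CD4 added to the combination, 27 of the 32 genes had a higher mean, with a median difference of 0.88, and 0 were called (limma, smallest adjusted p = 0.0673), against 0.948% of all genes called higher and 1.18% lower. The unadjusted p was under 0.05 for 15 genes, and for 3060 of all 17097. For 12 genes every array with a-CD4 lay above every combination array, against 3.92% of all genes. Flt1, for example, measured 6.34, 5.99, 4.67 and 5.25 with a-CD4 and 3.90, 3.69, 3.55, 3.87 and 3.67 without. The differences of Icam2 (-0.10, SE 0.32) and Myct1 (0.41, SE 0.53) were no larger than their errors.

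In the combination group the ciliated airway genes stood higher than in saline while the endothelial genes stood lower. Other lung lists varied. The 8 ciliated airway genes averaged 6.79 ± 0.39 (SD, n = 5) there and 4.35 ± 0.74 (n = 5) in saline, and 7 of the 8 rose, against 3.47% of all genes. The 8 alveolar genes ranged from 11.27 to 11.76 against 9.80 to 11.75 and 0 passed the limma test. The 10 fibroblast genes averaged 7.80 ± 0.20 (SD, n = 5) against 6.83 ± 0.80 (n = 5), and 4 of the 10 rose. The mural, macrophage and lymphatic lists had median differences of -0.09, -0.07 and -0.08. The 18S control averaged 12.10 ± 0.19 (SD, n = 5) against 11.68 ± 0.29 (n = 5). Of the 11 immediate early and heat shock genes, 7 fell, against the 2.15% of all genes given above. None of the 11 T cell identity genes passed the test. Their part in the endothelial values was not tested. Within saline, replicates 1 to 5 had alveolar means of 11.66, 11.75, 10.68, 9.80 and 10.04. Their endothelial means were 7.98, 6.93, 8.86, 8.70 and 7.97.

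Endothelial genes outside the list were read from lists drawn up with earlier results of these data known. Of 33 other endothelial receptors and regulators, 20 were called lower in the combination against saline. So were 8 of 12 lung capillary genes, against 2.15% of all genes. In the a-CD4 group against SD-101 the counts were 1 and 2, against 0.409% of all genes, and 0 of 9 arterial and venous genes were called. The genes called were Klf2, Aplnr and Kit. Klf2, a flow-responsive factor that T cells also make, differed by -1.42 (SE 0.24, limma adjusted p = 0.0145). Aplnr, the apelin receptor gene, differed by -2.70 (adjusted p = 0.0461). Kit, the stem cell factor receptor that mast cells also make, differed by -1.39 (adjusted p = 0.0486). The mast cell means were lower in this comparison too. Kdr, the main VEGF receptor gene, differed by -1.23 (SE 0.36, adjusted p = 0.102) and Vwf, the von Willebrand factor gene, by -1.50 (SE 0.45, adjusted p = 0.104). Fli1, an ETS factor also made by T cells, differed by -0.32 (SE 0.31).

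Other cells of vessels and blood were read in the same test. By limma 0 of 9 mural cell, 0 of 5 lymphatic, 0 of 8 platelet, 0 of 10 fibroblast, 0 of 11 macrophage, 0 of 4 neutrophil and 0 of 4 red cell genes were called. With 0.409% of all genes called lower, lists this short cannot show that these cells were unchanged. Their median differences were -0.49, -0.06, -0.12, 0.02, -0.89, 1.79 and -0.11 in that order. The mural, macrophage and red cell genes of smallest p were Higd1b (-1.19), C1qa (-1.25) and Hba-a1 (-2.18). Of 5 B cell genes Cd22 fell (-2.41, adjusted p = 0.0307), and of 6 mast cell genes Cma1 (-2.08, adjusted p = 0.0118). Itga2b, the platelet integrin gene, averaged between 4.22 and 4.70. Other platelet genes were lower in this test: Pf4 by -1.17 (SE 0.41, limma adjusted p = 0.159), Ppbp by -1.13 (SE 0.45) and Gp1bb by -0.50 (SE 0.18). Gp6, Itgb3 and Gp5 went the other way, by 0.28, 0.12 and 0.01. Prox1, the master factor of lymphatic endothelium, averaged 2.57 to 2.70, under the nonspecific level. It does not stand for its list. Lyve1 averaged 9.11, 7.69, 5.19 and 7.09 in saline, SD-101, the combination and the a-CD4 group. In this test Lyve1 differed by -0.60 (SE 0.53), and Pdpn went the other way, by 0.93 (SE 0.40, limma adjusted p = 0.244). Of 16 ligands for these receptors 0 were called in the a-CD4 group against SD-101. Their median difference was 0.09. The ligand gene of smallest p was Gdf2, which encodes BMP9. It differed by 0.33 (SE 0.09, limma adjusted p = 0.0946), with means of 3.42 and 3.09, near the nonspecific level. Dll4, the Notch ligand of sprouting vessels, differed by -1.65 (SE 0.58, adjusted p = 0.158), and Vegfa by -0.03 (SE 0.23).

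The genes outside the list whose values over the 20 arrays were most like the mean of the 32 were Rasip1 (r = 0.995), Foxf1, Tmem100 and Ldb2 (each 0.99), Ripply3 and Ushbp1 (0.989), Plvap (0.988) and Myzap (0.987). Rasip1, a gene needed for endothelial tubes to form, had means of 7.47, 6.94, 4.06 and 5.32 in the order above. Plvap, the diaphragm protein of capillary openings, had means of 9.50, 8.60, 5.05 and 7.03. With group means removed, their correlations were 0.99 and 0.98.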

How the data were processed

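The authors deposited log2 expression values for 45141 probe sets on 20 Affymetrix arrays of RNA from sorted cells. The affy, RMA and limma tools and the build mm8 are named per the submitters' processing notes, with no role, order or version. The deposited values, used unscaled, lay between 1.78 and 13.44 and the medians of arrays between 3.52 and 3.75. Of the probe sets, 28898 had 1 gene symbol, 551 several and 15692 none listed. Symbols were checked through Entrez identifiers (28689 matched, 0 changed). The probe set of highest mean gave 17097 genes.

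All 4 groups were fitted in limma 3.58.1 (R 4.3.3), group means only, with a 2-sided moderated test, Benjamini-Hochberg over all genes and a call under 0.05. The fit was tested on simulated data. The number of arrays limits precision. The members, lists and tests were chosen with earlier results of these data known. Named genes were all members, the 8 others most correlated with their mean, up to 4 of smallest p per list, and Kdr, Vwf, Fli1, Cd93, Cd8a, Cd3e, Ptprc and Itga2b. Vegfa, Sftpc and Prox1 were named after their values were seen. Lists covered vascular, mural, platelet, lymphatic, T cell, epithelial, stromal, myeloid, B cell, mast and red cell genes and immediate early and heat shock genes. Alternatives changed the probe set, scaling, filter, variance model, weights, groups fitted, replicate block and arrays.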

Additional observations from a re-analysis of the deposited data

Results flagged for a closer look

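Single arrays stood far from the rest of their group in 8 of 132 sets of values examined. Chance gives about 1 in 20, and the count is near that share. The sets also vary together, as the genes do. In the a-CD4 group, replicate 1 was high for Erg (5.40, next 4.53), Ptprb (8.48, next 7.15) and Thbd (8.51, next 7.37). In the combination (SD-101+anti-PD-1), replicate 3 was high for Erg (4.64, next 3.95) and Tal1 (3.93, next 2.97), and replicate 5 was low for Nos3 (3.76, next 4.18). In Saline-CTRL, replicate 2 was low for Tal1 (3.18, next 4.72), a value at or under the nonspecific level. Replicate 1 was low for Flt4 (2.84, next 3.20), a gene at the nonspecific level.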

How the results depend on the processing

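The combination is SD-101+anti-PD-1, and the a-CD4 group has a-CD4 added. The sign of the median difference held in every comparison under every alternative. In the a-CD4 group against SD-101 the 2 members called became 1 with the mean of all probe sets or the second-highest probe set, 6 with genes under the median mean left out, 7 with array weights and 0 with only the 2 groups fitted. With each array left out they ranged from 0 to 18, and the median from -1.76 to -1.31. In the a-CD4 group against the combination the 0 called became 4 with array weights and 5 with only the 2 groups fitted, and 0 to 1 with arrays left out. In the a-CD4 group against saline the 28 called became 16 with only the 2 groups fitted, and 15 to 29 with arrays left out (15 without Saline-CTRL replicate 3 or a-CD4 group replicate 4). Omitting the 2 arrays with the least T cell identity signal, chosen after seeing the data, gave 15 in that comparison and 0 in the a-CD4 group against SD-101. Flt4 ranged from -0.16 to 0.03, and turned to 0.03 (adjusted p = 0.952) without a-CD4 group replicate 4. The cause was not tested. The labels number the replicates, but only 9 of 27 same-numbered pairs correlated above 0.1 (-0.39 to 0.51), so the numbers are not taken to pair samples. A replicate block gave 20 members called in the a-CD4 group against SD-101 and changed no other count by over 1.5 times. The share of all genes called is not given for any of these alternatives. Their counts are therefore not read as a result about the members. Levels near the nonspecific controls limit Flt4, Tal1 and Cyyr1.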
